A study of Mus musculus with 8 samples.

Results

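The comparison covers all 8 arrays of the series: 4 arrays on slide 2 (WT 3, WT 4, EP2KO 3 and EP2KO 4) against 4 on slide 1 (WT 1, WT 2, EP2KO 1 and EP2KO 2). Arrays were assigned by replicate number, 3 or 4 against 1 or 2, and the slide recorded in each scanner file gave the same division. Every array held RNA from macrophages of male mice given LPS, a membrane component of gram-negative bacteria. WT arrays came from wild-type mice, and EP2KO arrays came from mice without EP2, the product of Ptger2 and one of the receptors through which prostaglandin E2 acts. The study set the genotypes against each other, and each slide carried 2 arrays of either genotype, so genotype entered the slide comparison as a covariate. The slides had different scan days, slide 2 having been scanned first. Slide, scan day and any other feature shared by replicates 1 and 2 or by replicates 3 and 4 therefore cannot be told apart. The labels used here give neither the dose or time of LPS, nor the site the cells were taken from, the age of the mice or whether replicates were separate animals. The spread behind every p-value is therefore that among these samples, and it may be technical.

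Macrophages sense LPS through the receptor TLR4 with its partner CD14, and NF-kB then switches on cytokines, chemokines and the inhibitors that later shut the response down. Macrophages that digest lipid or cell debris are known for another set of genes, among them Trem2, Gpnmb and Spp1, together with lysosomal enzymes and the proton pump that acidifies lysosomes. Preparations of macrophages can also hold lymphocytes, granulocytes and mast cells, so the marker genes of those cells were followed as well.

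The technical values of the slides were as follows. The 75th percentile of the signal, to which every value below is relative, was 987 to 1260 on slide 1 and 1124 to 1508 on slide 2 (difference 231, exact permutation test, two-sided p = 0.0857). Probes well above background numbered 25554 to 27774 on slide 1 and 26288 to 32142 on slide 2 (exact p = 0.314), and 0 spots were saturated. The brightest spike-in RNA, a control added to each sample, lay 4.50 to 5.16 log2 units above the 75th percentile on slide 1 and 6.03 to 6.63 on slide 2. That difference of 1.44 did not overlap between slides (exact p = 0.0286, the smallest that 4 against 4 arrays allow). Nor did the negative control signal, 43.1 to 43.4 on slide 1 and 44.6 to 47.9 on slide 2, or the slope of signal on spike-in amount, 0.876 to 0.885 and 0.919 to 1.01 (exact p = 0.0286 for each). With the features divided into 5 equal groups by signal, the median slide difference was 0.23 in the dimmest group and -0.03 in the brightest. The part of these technical differences in the results was not tested.

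Of 22731 features tested (15517 named genes and 7214 unnamed probes), 9626 differed between the slides, which is 42.3%: 5564 were higher on slide 2 (24.5%) and 4062 were lower (17.9%). A feature was counted when its limma adjusted p was under 0.05, and "higher" and "lower" are used of single genes below only where that was met. At least 2-fold differences were found for 2350 features that were higher (10.3%) and 2074 that were lower (9.12%). The slides did not overlap for 9721 of the 22731 features, so a lack of overlap in a single gene is common in these data. The median log2 difference over all features, slide 2 minus slide 1, was 0.07, with 0.03 in WT and 0.13 in EP2KO. With these shares as background, gene lists differed widely: at one end stood genes of lipid-associated macrophages and the proton pump, at the other those of B cells, mast cells, neutrophils and T cells. The 42 lists were chosen with earlier results of these data known, and some include marker genes named below. Their counts and medians are therefore a description and add no support for the slide difference. Among the WT arrays alone 2558 features were counted, and with another background correction (normexp) 3335.

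**Figure D1:**
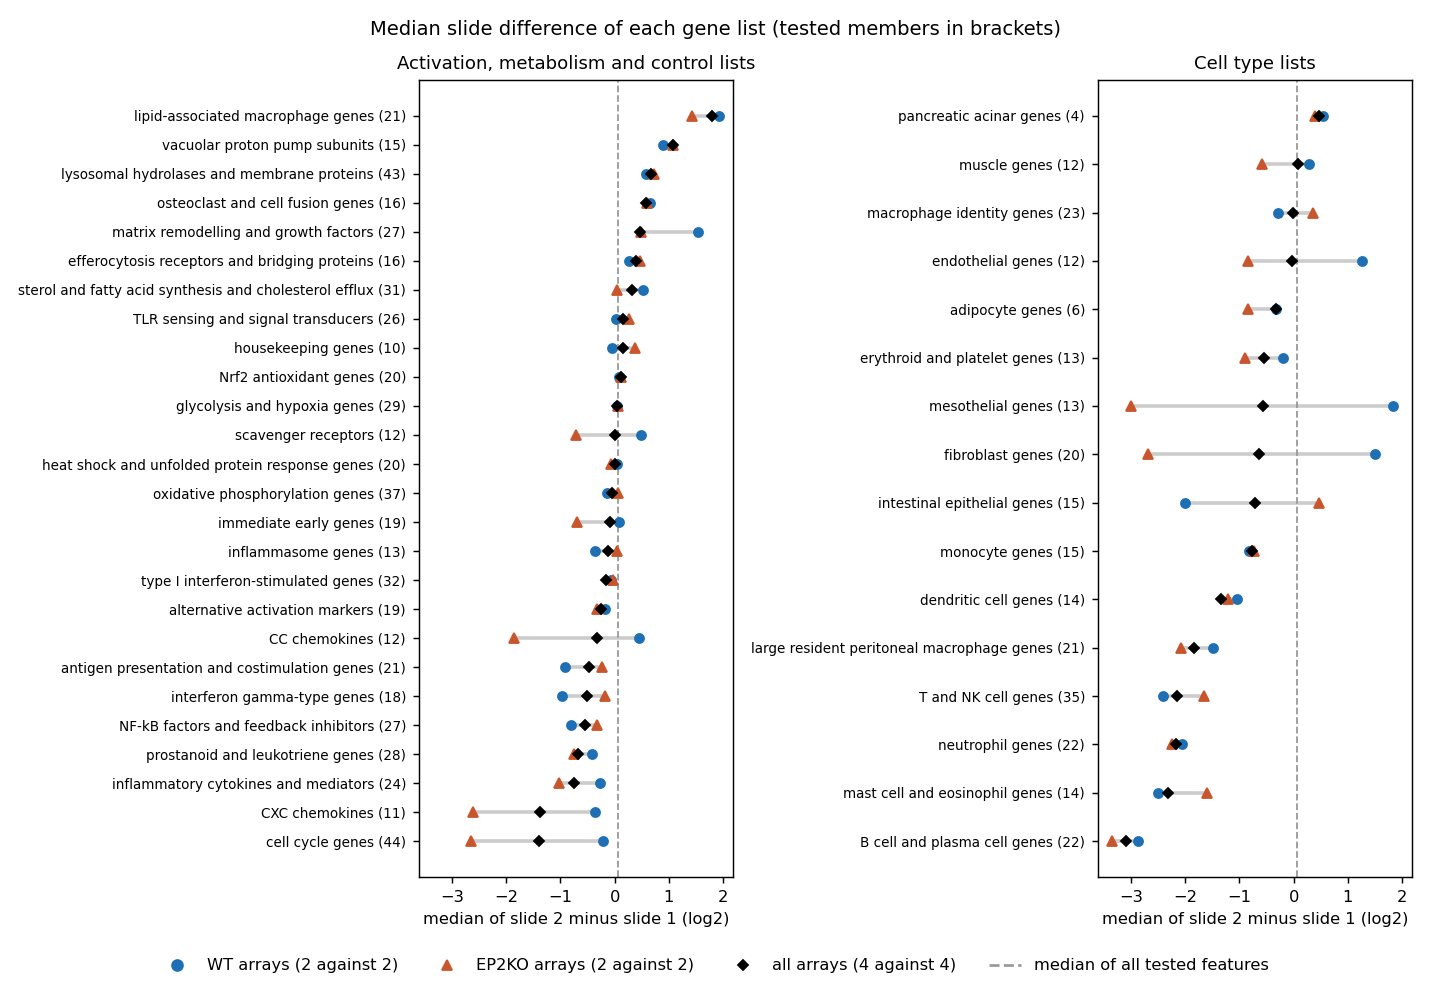
Median slide difference (slide 2 minus slide 1, log2) of each gene list, with activation and metabolism lists on the left and cell type lists on the right; black diamonds use all 8 arrays, blue circles WT, orange triangles EP2KO, and the dashed line marks the median of all tested features, 0.07. The lists run from 1.80 for lipid-associated macrophage genes to -3.09 for B cell and plasma cell genes, and fibroblast and mesothelial genes lie on opposite sides of 0 in WT and EP2KO.

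The 3 inflammatory markers, Il6, Acod1 and Il1b, were lower on slide 2. Il6, which encodes the cytokine interleukin 6, had a signal of 0.504, 0.603, 0.847 and 0.860 on WT 1, WT 2, EP2KO 1 and EP2KO 2, and of 0.0369, 0.0208, 0.0204 and 0.00987 on WT 3, WT 4, EP2KO 3 and EP2KO 4. Every slide 1 array was above every slide 2 array. The log2 difference was -5.11 ± 0.41 (SE, as for every value after ±, n = 4 arrays per slide), a 34.6-fold lower signal on slide 2 (limma adjusted p = 0.000232). The difference with normexp background correction was -2.91, or 7.54-fold lower (limma adjusted p = 0.0101). Acod1, whose enzyme makes itaconate in activated macrophages, had signals of 3.15, 3.02, 2.24 and 3.10 on the same slide 1 arrays and 0.202, 0.0971, 0.105 and 0.0593 on those of slide 2. Again the slides did not overlap, and the log2 difference was -4.76 ± 0.30 (27.1-fold lower, limma adjusted p = 0.000118). Il1b, the gene of interleukin 1 beta, read 1.06, 2.06, 0.777 and 0.725 on slide 1 and 0.177, 0.183, 0.165 and 0.0971 on slide 2, with its highest value on WT 2 and its lowest on EP2KO 4. Its log2 difference was -2.80 ± 0.26 (6.98-fold lower, limma adjusted p = 0.000398).

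The other 3 markers, Spp1, Gpnmb and Ctsk, known from lipid-laden and bone-resorbing macrophages, were higher. Spp1, which encodes the secreted matrix protein osteopontin, had signals of 1.77, 1.03, 2.24 and 2.11 on slide 1, in the array order given above, and 44.8, 37.9, 28.7 and 27.1 on slide 2. Its slide 2 signals were above all those of slide 1, by 4.30 ± 0.30 on the log2 scale (19.8-fold higher, limma adjusted p = 0.000146). Gpnmb, a glycoprotein of lysosomes and melanosomes, read 4.60, 1.60, 8.32 and 12.2 on slide 1 and 102, 86.0, 109 and 152 on slide 2. WT 2 was the lowest array for both genes, yet the slides stayed apart, with a log2 difference of 4.39 ± 0.43 for Gpnmb (20.9-fold higher, limma adjusted p = 0.000466). Ctsk, the cathepsin that osteoclasts use to degrade collagen, went from 1.47, 0.578, 2.68 and 3.59 on slide 1 to 42.7, 62.3, 83.3 and 68.5 on slide 2. This was the widest of the 6 marker differences, 5.21 ± 0.38 (36.9-fold higher, limma adjusted p = 0.000175). Rearranging the 8 arrays in all 70 ways gave each of the 6 markers p = 0.0286 (exact permutation test, two-sided), the smallest it can give. The markers were chosen with earlier results of these data known, so neither this p nor their limma p-values add support for the slide difference. In WT and EP2KO the log2 slide differences were -4.31 and -5.91 for Il6, -4.46 and -5.06 for Acod1, and -3.04 and -2.57 for Il1b. They were 4.93 and 3.68 for Spp1, 5.11 and 3.67 for Gpnmb, and 5.81 and 4.61 for Ctsk. Ptger2, by contrast, had a slide difference of -0.19 ± 0.15 (limma adjusted p = 0.340): its signals were 0.972, 1.12, 0.357 and 0.287 on slide 1 and 0.899, 1.00, 0.323 and 0.225 on slide 2, and on both slides the EP2KO arrays were below the WT arrays.

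**Figure D2:**
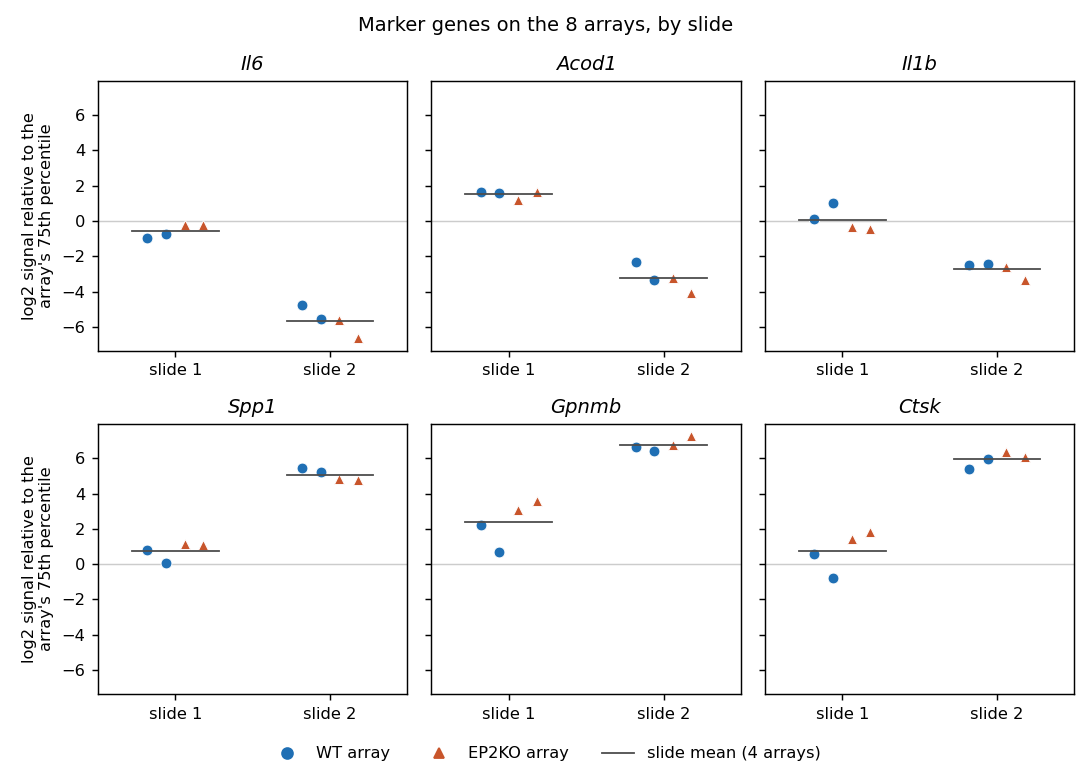
Log2 signal of the 6 marker genes, relative to each array's 75th percentile, on the arrays of slide 1 and slide 2. Circles are WT arrays, triangles EP2KO arrays and bars the mean of the 4 arrays of a slide. In every panel all 4 arrays of one slide lie above all 4 of the other; Il6, Acod1 and Il1b are lower on slide 2, and Spp1, Gpnmb and Ctsk are higher.

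The wider list of inflammatory cytokines and mediators did not move as a block. Of 24 members tested, 4 were higher and 11 lower on slide 2 (16.7% and 45.8%, against 24.5% and 17.9% of all features). A further 5 members with a probe were too dim to test, and the median log2 difference of those tested was -0.74. The list includes the marker Il6 and was chosen with earlier results of these data known. Tnf, the gene of tumour necrosis factor, did not pass: its signal was 0.197, 0.198, 0.299 and 0.309 on slide 1 and 0.373, 0.159, 0.179 and 0.169 on slide 2, a log2 difference of -0.25 ± 0.33 (limma adjusted p = 0.564). Its slides overlapped because WT 3 was the highest array of all; without WT 3 the difference was -0.61 and the limma adjusted p 0.0175. Il1rn, which encodes the natural antagonist of interleukin 1, went the other way from Il1b, with signals of 0.0796 to 0.214 on slide 1 and 0.4004 to 0.820 on slide 2 (1.91 ± 0.35, limma adjusted p = 0.00562). Without EP2KO 1 the list had 7 lower members, and 2 were higher without WT 1, WT 3 or WT 4. With normexp background correction 5 members were lower and 2 higher.

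CC chemokines were counted about as often as all features, in both directions, and no CXC chemokine was higher. Ccl3 and Ccl4, both attractants of monocytes and T cells, were higher on slide 2, with log2 differences of 2.08 ± 0.24 and 1.66 ± 0.26. Ccl5, an attractant of T cells, was lower: 15.03, 13.5, 6.32 and 7.40 on slide 1 against 1.94, 2.43, 1.45 and 2.09 on slide 2, a difference of -2.35 ± 0.21 (limma adjusted p = 0.000330). Ccl17, a ligand of the chemokine receptor CCR4, had the widest difference of the CC chemokines tested, from 0.998, 0.337, 1.96 and 4.28 to 0.113, 0.0329, 0.0148 and 0.0138 on the 2 slides. Its log2 difference was -5.46 ± 0.98, made of -3.25 in WT and -7.66 in EP2KO. The eosinophil attractant Ccl24 was lower by 8.43-fold (-3.08 ± 0.44), with EP2KO 4 the lowest array. Ccl2, the main monocyte attractant, had opposite slide differences in the genotypes, 2.75 in WT and -1.86 in EP2KO, though the interaction did not pass (limma adjusted p = 0.135). In all, 2 CC chemokines were higher and 3 lower of 12 tested (16.7% and 25%, against 24.5% and 17.9% of all features). Among 11 CXC chemokines 0 were higher and 5 lower. They included the neutrophil attractants Cxcl1 (-1.13 ± 0.17), Cxcl2 (-1.31 ± 0.27) and Cxcl3 (-3.91 ± 0.84), and Cxcl9, a T cell attractant induced by interferon gamma (-3.61 ± 0.43). Cxcl3 and Cxcl9 were well above background on only 2 slide 2 arrays each, so their slide 2 values lie near background. With normexp background correction 1 CXC chemokine was lower: Cxcl1, Cxcl2, Cxcl3 and Cxcl9 did not pass, with differences of -0.67 for Cxcl2, -1.13 for Cxcl3 and -1.03 for Cxcl9.

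Of 27 NF-kB factors and feedback inhibitors, 2 were higher and 13 lower on slide 2 (7.41% and 48.15%, against 24.5% and 17.9% of all features), with a median of -0.55. The count of higher members was 1 without WT 3, EP2KO 2, EP2KO 3 or EP2KO 4, and that of lower members stayed between 11 and 14 without 1 array. Nfkbia, which encodes the inhibitor IkB alpha, had signals of 28.3, 38.6, 26.4 and 26.2 on slide 1 and 7.55, 7.07, 8.38 and 7.76 on slide 2. The slides did not overlap, and the log2 difference was -1.94 ± 0.15 (3.84-fold lower, limma adjusted p = 0.000214). Nfkbie, another such inhibitor, was lower by 2.97-fold (-1.57 ± 0.11), Socs3, an inhibitor of cytokine receptors, by 3.45-fold (-1.79 ± 0.29), and the stress-response gene Ier3 by 3.35-fold (-1.74 ± 0.19). Tnfaip2, a TNF-induced gene, was higher (1.28 ± 0.21).

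Promoters of 3 of these lower genes are shown because each holds an NF-kB consensus match in the bases before its start site. The sequences are from RefSeq (GRCm38.p6), run 5′ to 3′ on the gene's strand, begin 50 bases before the match and end 50 bases after it or at the base before the start site. Capitals mark the match.
Il6 (chr5:30013020-30013113, plus strand): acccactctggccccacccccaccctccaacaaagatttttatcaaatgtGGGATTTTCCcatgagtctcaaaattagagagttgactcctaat
Cxcl3 (chr5:90785978-90786087, plus strand): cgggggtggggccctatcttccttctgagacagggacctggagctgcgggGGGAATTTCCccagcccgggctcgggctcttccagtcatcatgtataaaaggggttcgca
Nfkbia (chr12:55492648-55492726, minus strand): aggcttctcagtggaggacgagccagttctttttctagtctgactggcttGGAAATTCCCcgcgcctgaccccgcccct
Between the match and the start site lie 34 bases in Il6, 63 in Cxcl3 and 19 in Nfkbia. On either strand the NF-kB consensus was found in 5.80% of all 32851 promoter windows of the same length (250 bases before to 50 after a start site). By gene it was found in 9 of 23 promoters of the NF-kB list, 4 of 9 of the CXC list and 1 of the 6 markers. Tnfaip2, Egr2 and Fos, which were higher on slide 2, held the consensus too. Among genes at least 2-fold different, 11.1% of those higher and 9.05% of those lower on slide 2 held it, against 8.28% of all tested genes. A match is a description of letters and says nothing of the factor.

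Immediate early genes, which code for transcription factors induced within minutes of a stimulus, differed in both directions. Atf3 was higher on slide 2, with signals of 4.25, 4.88, 4.02 and 4.87 on slide 1 and 20.4, 19.2, 28.8 and 25.8 on slide 2 (2.37 ± 0.15, limma adjusted p = 0.000102). Jun (1.97 ± 0.29), Fos (1.15 ± 0.17) and Egr2 (2.18 ± 0.42) were higher too, whereas Egr1 did not pass (-0.57 ± 0.38). Lower on slide 2 were Klf2, a factor that restrains macrophage activation (-1.55 ± 0.27), and Myc (-1.53 ± 0.26). The list counted 5 higher and 6 lower of 19 (26.3% and 31.6%, against 24.5% and 17.9% of all features), and its median was -0.09.

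Among the genes that sense bacterial products, Cd14 was lower, 28.4, 35.2, 28.5 and 28.1 on slide 1 and 18.5, 12.9, 10.9 and 9.96 on slide 2, with a log2 difference of -1.24 ± 0.16 (limma adjusted p = 0.00140). Lower as well were Tlr2, a receptor for bacterial lipoproteins (-1.59 ± 0.20), and Lbp, which encodes the LPS-binding protein (-3.10 ± 0.33). Tlr4 itself was higher by 0.66 ± 0.16 (limma adjusted p = 0.0162), but without EP2KO 1 the difference was 0.57 and the limma adjusted p 0.0525. The RNA receptor gene Tlr8 was higher by 1.96 ± 0.25 at low signals of 0.0387 to 0.0601 and 0.116 to 0.242. Myd88, the adaptor shared by most of these receptors, did not pass (-0.32 ± 0.18). The list held 6 higher and 3 lower members of 26 (23.1% and 11.5%, against 24.5% and 17.9% of all features). Without EP2KO 1 the count of higher members was 3.

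Type I interferon-stimulated genes were not called more often than all features. Of 32 type I interferon-stimulated genes 4 were higher and 5 lower (median -0.16), with Isg15, a ubiquitin-like protein, lower (-0.70 ± 0.16). Only 1 was higher without WT 3 or without EP2KO 1, EP2KO 3 or EP2KO 4, and 3 were lower without WT 1. Guanylate-binding proteins, which interferon gamma induces and which attack intracellular microbes, were lower: Gbp2 (-1.86 ± 0.23), Gbp3 (-2.18 ± 0.18) and Gbp2b (-4.86 ± 0.27). Gbp2b read 0.564, 0.768, 2.01 and 2.04 on slide 1 and 0.0326, 0.0360, 0.0398 and 0.0533 on slide 2, with the EP2KO arrays above the WT arrays on both. These genes are related copies in 1 cluster, so a probe may also bind RNA of a neighbour. Cd274, the gene of the inhibitory ligand PD-L1, was higher by 1.12 ± 0.22. Of 18 interferon gamma-type genes 1 was higher and 7 were lower (5.56% and 38.9%, against 24.5% and 17.9% of all features). Pycard, the inflammasome adaptor ASC, was lower (-1.54 ± 0.17), one of 4 lower genes among 13 inflammasome genes; without WT 2 there were also 3 higher.

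The genes of lipid-associated macrophages were nearly all higher on slide 2: 19 of 21 were higher and 1 was lower, with a median log2 difference of 1.80 (1.93 in WT and 1.44 in EP2KO). All 21 were well above background on all 8 arrays. The list includes Spp1 and Gpnmb, which were chosen with their slide difference known. Trem2, the lipid-sensing receptor that marks these cells, had signals of 38.2, 22.3, 28.8 and 31.8 on slide 1 and 120.2, 103, 152 and 108 on slide 2. The slides did not overlap, and the difference was 2.00 ± 0.20 (4.01-fold higher, limma adjusted p = 0.000505). Syngr1, a vesicle membrane protein, went from 0.511, 0.365, 0.462 and 0.629 to 11.3, 8.97, 16.8 and 16.8 (4.75 ± 0.18). Atp6v0d2, the proton pump subunit particular to macrophages and osteoclasts, read 0.836, 0.365, 1.23 and 2.06 on slide 1 and 22.3, 24.7, 27.3 and 28.3 on slide 2 (4.77 ± 0.37). Lipa, the lysosomal acid lipase, was 4.16-fold higher (2.06 ± 0.13) and the tetraspanin Cd9 2.20-fold (1.14 ± 0.21). The lower member was Apoc4, an apolipoprotein (-2.27 ± 0.29), which did not pass with normexp background correction (-1.31).

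Osteoclast genes were higher more often than all features, but not in every member. Acp5, which encodes the tartrate-resistant phosphatase, was higher by 0.75 ± 0.14. The chloride exchanger Clcn7 (1.74 ± 0.12) and Tcirg1, a subunit of the osteoclast proton pump (1.65 ± 0.16), were higher as well. Lower were the gelatinase Mmp9 (-2.49 ± 0.33), the fusion gene Ocstamp (-1.72 ± 0.41) and carbonic anhydrase 2, Car2 (-2.10 ± 0.25). Ocstamp (-0.96), Car2 (-1.08) and Acp5 did not pass with normexp background correction. Of 16 tested 9 were higher and 3 lower (56.25% and 18.75%, against 24.5% and 17.9% of all features), with a median of 0.59. With normexp background correction 5 were higher and 1 lower.

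The vacuolar proton pump, the multi-subunit machine that acidifies lysosomes, was higher on slide 2 in all 15 subunits tested, and in none did the slides overlap. Of all 22731 features, 9721 did not overlap between the slides. The median log2 difference of the subunits was 1.08 (0.90 in WT and 1.07 in EP2KO). Atp6v0a1, a membrane subunit, had signals of 4.55, 5.53, 5.81 and 6.52 on slide 1 and 40.7, 49.6, 47.4 and 43.5 on slide 2 (3.02 ± 0.13, 8.13-fold, limma adjusted p = 3.99e-05). Atp6v1c1, which joins the cytosolic part to the membrane part, read 2.49, 2.35, 2.42 and 3.09 and 14.1, 13.8, 17 and 17.99 (2.60 ± 0.11). Both were narrow within a slide and several-fold apart between slides. The catalytic subunit Atp6v1a differed by 1.80 ± 0.11, Atp6v1b2 by 1.70 ± 0.11 and the ubiquitous membrane subunit Atp6v0d1 by 0.55 ± 0.11. With each array left out in turn all 15 stayed higher; with normexp background correction 9 were higher, and among WT arrays alone 5.

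Lysosomal hydrolases and membrane proteins were higher in 31 of 43 and lower in 2, with a median of 0.67. Galc, the enzyme missing in Krabbe disease, had signals of 0.152, 0.161, 0.175 and 0.237 on slide 1 and 0.805, 0.854, 0.845 and 1.31 on slide 2 (2.39 ± 0.17, limma adjusted p = 0.000160). EP2KO 4 was the highest array and no arrays overlapped. Npc1, the exporter of lysosomal cholesterol, was higher by 1.96 ± 0.11, Tpp1, a tripeptidyl peptidase, by 1.76 ± 0.09 and Gusb, beta-glucuronidase, by 1.19 ± 0.10. The abundant protease gene Ctsd was higher by 0.92 ± 0.10, with signals of 87.7 to 104 on slide 1 and 153 to 221 on slide 2. Ctsc, the protease that activates the serine proteases of granules, was lower (-0.99 ± 0.10). With normexp background correction 19 of the lysosomal genes were higher, and among WT arrays alone 13.

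**Figure D3:**
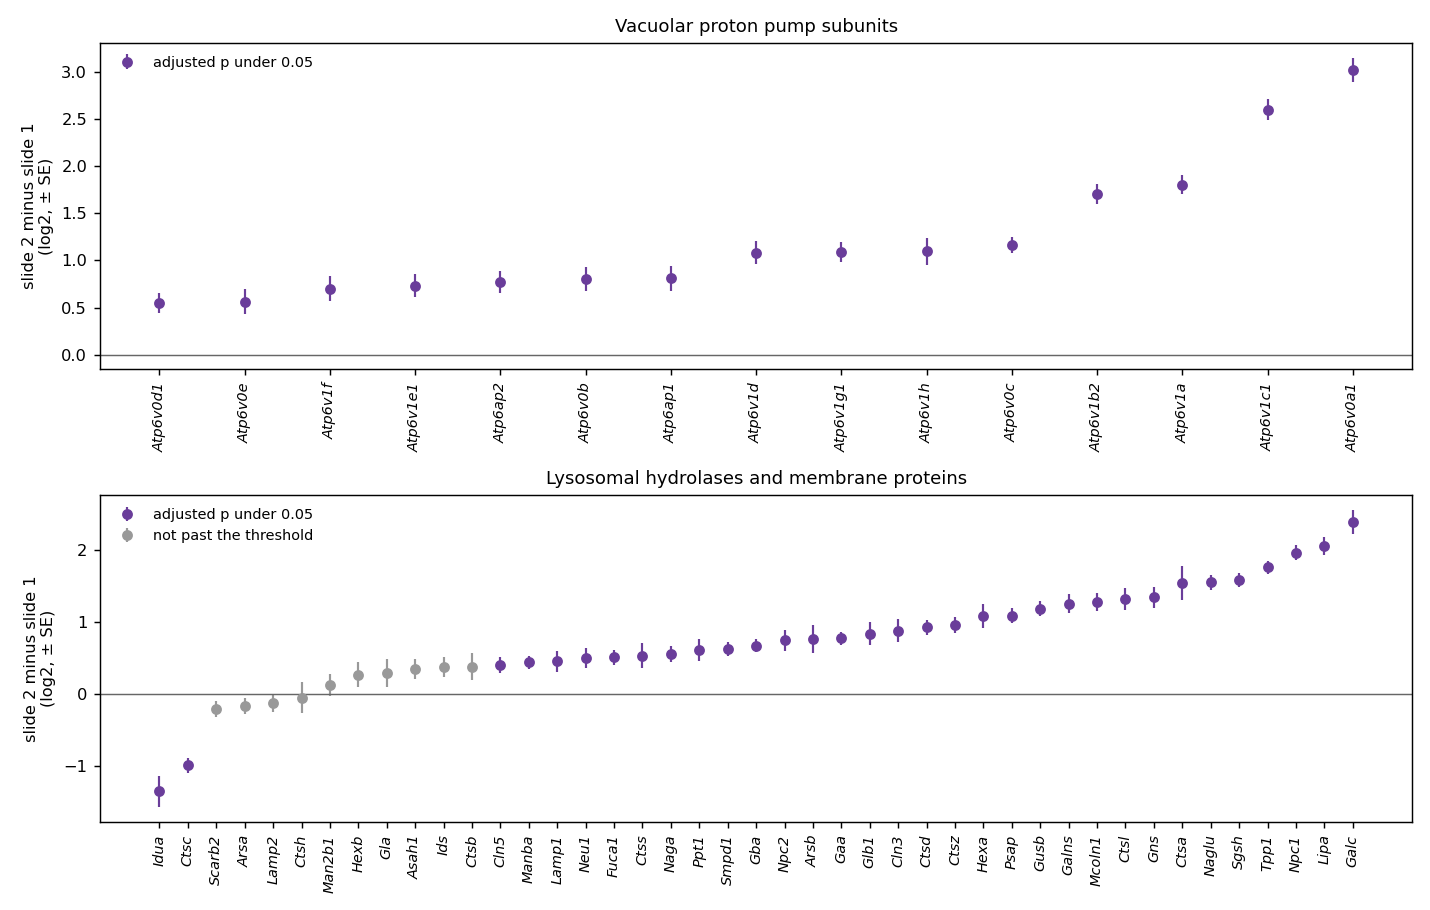
Slide difference (slide 2 minus slide 1, log2, with the standard error of the limma fit) of each tested vacuolar proton pump subunit (top) and each tested lysosomal gene (bottom), ordered by size. Purple points have a limma adjusted p under 0.05 and grey points do not. All 15 pump subunits lie above 0, as do 31 purple points of the lysosomal list, and 2 purple points lie below 0.

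The promoters of 4 of these higher genes follow because each holds the letters TCACGTG, the core of the E-box variant named CLEAR that transcription factors of the TFEB and MITF family are known to bind at lysosomal genes. Both strands were searched, and where the strands' matches overlap the joined match is in capitals. The sequences are again from RefSeq (GRCm38.p6), 5′ to 3′ on the gene's strand, with the same bounds.
Atp6v1a (chr16:44139334-44139441, minus strand): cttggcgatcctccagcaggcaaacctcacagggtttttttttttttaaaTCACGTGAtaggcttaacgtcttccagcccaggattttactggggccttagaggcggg
Sgsh (chr11:119355511-119355589, minus strand): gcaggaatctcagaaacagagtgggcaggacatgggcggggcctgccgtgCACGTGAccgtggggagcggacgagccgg
Ctsa (chr2:164833710-164833772, plus strand): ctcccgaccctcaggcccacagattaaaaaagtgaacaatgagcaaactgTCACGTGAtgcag
Naglu (chr11:101069970-101070076, plus strand): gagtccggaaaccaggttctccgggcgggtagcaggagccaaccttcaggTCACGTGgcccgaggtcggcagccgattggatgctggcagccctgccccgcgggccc
Sgsh and Naglu encode enzymes that break down heparan sulfate, and Ctsa encodes protective protein, which stabilises other lysosomal enzymes. They were higher on slide 2 by 1.58 ± 0.10, 1.55 ± 0.10 and 1.54 ± 0.23 log2 units. One or the other orientation of TCACGTG was present in 3.77% of all 32851 promoter windows and in 6.21% of tested genes with a promoter in the table. It was present in 11 of 33 lysosomal promoters and 4 of 11 of the proton pump. Of genes at least 2-fold higher on slide 2 8.03% held it and of those at least 2-fold lower 3.20%. None of the 6 markers did.

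Receptors and bridging proteins for the uptake of dying cells were divided. Stab2, a scavenger receptor for hyaluronan and exposed phosphatidylserine, had signals of 0.0206, 0.0149, 0.0227 and 0.0382 on slide 1 and 0.689, 0.954, 1.13 and 1.51 on slide 2 (5.50 ± 0.22, 45.4-fold, limma adjusted p = 3.73e-05). Mfge8, which bridges dying cells to integrins, went from 11.8, 6.28, 18.9 and 29.2 to 178, 199, 253 and 269 (3.96 ± 0.29). Both were higher on every slide 2 array. Gas6, the ligand of the receptors Mertk and Axl, was higher by 2.44 ± 0.34, whereas Axl was lower (-1.12 ± 0.11). Timd4, the phosphatidylserine receptor of resident macrophages, was lower (-2.35 ± 0.37). The list counted 7 higher and 5 lower of 16 (43.75% and 31.25%, against 24.5% and 17.9% of all features). Without EP2KO 1 the count of lower members was 3.

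Scavenger and endocytic receptors were likewise mixed. Cd36, the fatty acid and oxidised lipoprotein receptor, was higher, 7.31, 6.02, 8.18 and 9.71 on slide 1 against 39.2, 29.5, 31.6 and 31.4 on slide 2 (2.09 ± 0.17), and the mannose receptor Mrc1 was higher by 1.41 ± 0.19. Marco, a receptor for bacteria and particles, was lower (-2.33 ± 0.38). Olr1, another receptor for oxidised lipoprotein, was lower (-3.24 ± 0.41), with EP2KO 3 above the other slide 2 arrays. Of 12 scavenger receptors 4 were higher and 3 lower (33.3% and 25%, against 24.5% and 17.9% of all features). The count of higher members was 2 without WT 1, WT 3, WT 4, EP2KO 1 or EP2KO 4. Arg1, the arginase used as a sign of alternative activation, did not pass (-0.26 ± 0.21, 0.19 in WT and -0.71 in EP2KO). The alternative activation list held 3 higher and 5 lower genes of 19 (15.8% and 26.3%, against 24.5% and 17.9% of all features). Without EP2KO 1 or EP2KO 3 the count of lower genes was 3.

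Cholesterol handling differed at single genes. Nr1h3, which encodes the sterol-sensing nuclear receptor LXR alpha, had signals of 2.37, 2.41, 1.61 and 1.87 on slide 1 and 7.25, 8.17, 13.4 and 13.7 on slide 2 (2.33 ± 0.26), and its target Abca1, a cholesterol exporter, was higher by 0.85 ± 0.19. Scd1, the desaturase that makes oleic acid, was lower, 1.45 to 2.68 on slide 1 and 0.138 to 0.408 on slide 2 (-3.07 ± 0.30). Srebf2, the regulator of sterol synthesis, was higher by 2.13 ± 0.16 with its brightest probe, but its other kept probe differed by -0.65. The list of 31 held 10 higher and 6 lower genes (32.26% and 19.35%, against 24.5% and 17.9% of all features). Hk3, a hexokinase of myeloid cells, was higher by 2.85 ± 0.12 and Vegfa, the endothelial growth factor, by 2.10 ± 0.50, within a glycolysis and hypoxia list of 9 higher and 5 lower among 29. Genes of oxidative phosphorylation were close to even, 0 higher and 1 lower of 37, with a median of -0.05.

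Growth factors of repair were higher at several members: Igf1, insulin-like growth factor 1, by 1.87 ± 0.33, Pdgfa, a platelet-derived growth factor, by 2.32 ± 0.19, and Hgf, hepatocyte growth factor, by 1.56 ± 0.10 at low signals of 0.0692 to 0.105 and 0.208 to 0.323. Serpinb2, which inhibits plasminogen activator and is abundant in activated macrophages, read 16.3, 4.41, 23.3 and 20.9 on slide 1 and 0.358, 0.395, 1.21 and 1.099 on slide 2 (-4.38 ± 0.37) and was lower on every slide 2 array. Of 27 matrix and growth factor genes 11 were higher and 5 lower (40.7% and 18.5%, against 24.5% and 17.9% of all features).

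Prostanoid and leukotriene genes, the pathway of the EP2 ligand, were more often lower: 12 of 28, with 3 higher (1 without WT 1 or without EP2KO 2). Hpgds, the synthase of prostaglandin D2 in blood cells, went against the lower members. It read 0.0784, 0.0522, 0.0662 and 0.0969 on slide 1 and 2.10, 1.93, 1.71 and 2.55 on slide 2, a log2 difference of 4.84 ± 0.21 (28.7-fold higher, limma adjusted p = 3.99e-05). Ptgs1, cyclooxygenase 1, was lower (-1.99 ± 0.26). So were Alox5, which starts leukotriene synthesis (-2.07 ± 0.24), and the leukotriene B4 receptor gene Ltb4r1 (-2.38 ± 0.23). The other cAMP-raising prostaglandin E2 receptor, Ptger4, was lower (-1.07 ± 0.12), from 1.04, 0.913, 0.764 and 0.914 on slide 1 to 0.464, 0.543, 0.352 and 0.382 on slide 2 without overlap. Antigen presentation genes were lower in 11 of 21 and higher in 0 (52.4% and 0%, against 17.9% and 24.5% of all features). The class II chain H2-Aa stood at -1.25 ± 0.24, the invariant chain Cd74 at -0.93 ± 0.18 and the costimulatory ligand Cd86 at -1.28 ± 0.15.

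The label of the cells was checked against genes that define macrophages. Csf1r, the receptor for macrophage colony-stimulating factor, read 108, 127, 89.98 and 97.3 on slide 1 and 94.4, 78.7, 102 and 121 on slide 2, and Adgre1, which encodes F4/80, 29.8, 30.9, 34.2 and 34.6 and 27.9, 23.6, 31.6 and 39.8. Both were far above the 75th percentile on every array, and neither passed the test of the slide difference (-0.10 ± 0.18 and -0.10 ± 0.13, limma adjusted p = 0.680 and 0.559). Of 23 macrophage identity genes 5 were higher (3 without EP2KO 2 or EP2KO 3) and 4 lower, 21.7% and 17.4% against 24.5% and 17.9% of all features. Their median was -0.01 and their summed signal was 659 to 857 on slide 1 and 692 to 1041 on slide 2. Higher were Mpeg1, the pore-forming perforin-2 (1.40 ± 0.15), and Sirpa, the receptor for CD47 (1.29 ± 0.12). Lower were the integrin chain Itgam (-0.66 ± 0.12), the fractalkine receptor Cx3cr1 (-1.97 ± 0.26) and Aif1 (-1.03 ± 0.20). In RNA from mixed cells, fewer cells of a type and less RNA per cell cannot be told apart, here and in the lists that follow.

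Genes known from large resident macrophages of the peritoneum, a site the labels do not name, were lower in 17 of 21 and higher in 2, with a median of -1.84 (-1.48 in WT and -2.08 in EP2KO). The summed signal of the list was 374 to 518 on slide 1 and 206 to 307 on slide 2. Icam2, an adhesion molecule of these cells, had signals of 79.8, 125, 96.0 and 93.3 on slide 1 and 12.5, 7.03, 10.3 and 12.9 on slide 2 (-3.23 ± 0.24, 9.37-fold lower, limma adjusted p = 0.000175). Alox15, their 12/15-lipoxygenase, read 4.50, 2.58, 17.1 and 20.1 and 0.214, 0.436, 0.380 and 0.678 (-4.33 ± 0.45). In neither gene did the slides overlap. Selp, the adhesion gene P-selectin, was lower (-2.55 ± 0.19). Gata6, the transcription factor that fixes this identity, had signals of 2.38, 1.36, 3.93 and 4.90 on slide 1 and 1.09, 1.39, 0.512 and 0.494 on slide 2. Its slides overlapped, its difference was -0.55 in WT and -3.12 in EP2KO (-1.84 ± 0.53 together, limma adjusted p = 0.0289), and without EP2KO 2 it was -1.52 with an adjusted p of 0.0742. The call was also lost without EP2KO 1, EP2KO 3, EP2KO 4 or WT 1. Cd93 went against the list, 1.86 ± 0.15.

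Monocyte genes were lower in 8 of 15 and higher in 2 (1 higher without WT 4 or any 1 EP2KO array). The shares were 53.3% lower and 13.3% higher, against 17.9% and 24.5% of all features. Hp, haptoglobin, which myeloid cells carry in granules, had signals of 65.3, 103, 75.05 and 56.9 on slide 1 and 4.44, 4.79, 2.46 and 2.00 on slide 2 (-4.52 ± 0.23, limma adjusted p = 6.17e-05). Lower too were Plac8 (-3.55 ± 0.23) and Ccr2, the chemokine receptor of inflammatory monocytes (-1.44 ± 0.25).

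Neutrophil genes were lower in 15 of 22 and higher in 2, with a median of -2.16 (-2.06 in WT and -2.24 in EP2KO). Their summed signal was 150.3 to 273 on slide 1 and 74.1 to 83.1 on slide 2. Fpr1, a receptor for bacterial formyl peptides, read 16.7, 26.03, 12.3 and 10.6 on slide 1 and 0.768, 0.356, 0.127 and 0.138 on slide 2, and its relative Fpr2 7.86, 14.4, 6.43 and 5.64 and 0.442, 0.302, 0.122 and 0.116. These 2 receptors, which activated macrophages express as well, were 58.5-fold and 38.4-fold lower (-5.87 ± 0.34 and -5.26 ± 0.26). The calprotectin genes S100a8 and S100a9 were lower (-2.24 ± 0.36 and -4.13 ± 0.56), as were the receptor gene Cxcr2 (-2.23 ± 0.25) and the granule protease Prtn3 (-4.28 ± 0.39); with normexp background correction Cxcr2 did not pass (-1.05). Wfdc21 had signals of 1.61, 7.99, 3.21 and 2.07 on slide 1 and 0.0404, 0.0162, 0.0114 and 0.00762 on slide 2, where EP2KO 4 was not well above background (-7.62 ± 0.57). Against the list, the elastase gene Elane (1.36 ± 0.18) and the collagenase Mmp8 (2.63 ± 0.37) were higher.

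B cell and plasma cell genes were lower in 19 of 22, with a median of -3.09 (-2.87 in WT and -3.35 in EP2KO). All 22 were well above background on all 8 arrays, and their summed signal was 97.9 to 165 on slide 1 and 12.6 to 30.9 on slide 2. Ms4a1, which encodes CD20, had signals of 32.5, 25.8, 36.7 and 21.5 on slide 1 and 2.28, 4.02, 1.25 and 2.13 on slide 2 (-3.68 ± 0.32, 12.8-fold lower, limma adjusted p = 0.000321). No slide 2 array reached a slide 1 array. Lower too were the antigen receptor chain Cd79a (-3.37 ± 0.33) and Mzb1, a chaperone of antibody-secreting cells (-3.41 ± 0.30). Cd72, a gene that macrophages can express too, was the 1 member that was higher (1.86 ± 0.14).

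T and NK cell genes were lower in 30 of 35 and higher in 2, with a median of -2.15 (-2.41 in WT and -1.66 in EP2KO). Their summed signal overlapped, 26.2 to 54.4 on slide 1 and 22.6 to 34.8 on slide 2. The higher member Il7r, a cytokine receptor, went from 1.25, 0.881, 1.06 and 1.54 to 11.9, 13.5, 21.6 and 21.2 (3.83 ± 0.19). Il7r alone made up most of the sum on every slide 2 array. The T cell receptor complex was lower: Cd3d read 1.98, 1.33, 0.532 and 0.430 on slide 1 and 0.184, 0.155, 0.0664 and 0.0977 on slide 2 (-2.92 ± 0.23). Cd3g differed by -2.80 ± 0.16, Cd3e (-1.13 ± 0.19) and the kinase gene Lck (-2.31 ± 0.24). On both slides the WT arrays exceeded the EP2KO arrays in Cd3d. With normexp background correction 13 members were lower and the Cd3g difference was -1.77.

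Dendritic cell genes were lower in 9 of 14, among them Ccr7, the receptor that guides these cells to lymph nodes (-3.13 ± 0.23), while Cd83, a maturation marker, was higher (2.19 ± 0.18). Their summed signal overlapped and ran higher on slide 2, 34.2 to 53.5 on slide 1 and 45.7 to 67.9 on slide 2. A sum is weighted towards bright genes, and Cd83 was the 1 member that was higher. Mast cell and eosinophil genes were lower in 13 of 14 and higher in 0, with a median of -2.31 (-2.51 in WT and -1.60 in EP2KO) and a summed signal of 18.9 to 42.4 on slide 1 and 3.74 to 16.1 on slide 2. Mcpt4, a chymase of connective tissue mast cells, had signals of 4.62, 3.31, 9.25 and 8.98 on slide 1 and 0.301, 0.304, 2.63 and 4.42 on slide 2. Slide 2 overlapped slide 1 because EP2KO 4 exceeded WT 2. The difference was -2.56 ± 0.47, and that of the mast cell carboxypeptidase Cpa3 -2.79 ± 0.46. Kit, the stem cell factor receptor (-1.46 ± 0.26), and Siglecf, a lectin of eosinophils (-2.24 ± 0.41), were lower, though Kit did not pass with normexp background correction (-0.83). Most genes of the large resident macrophage, monocyte, neutrophil, B cell, T and NK cell, dendritic cell and mast cell lists were lower on the same slide as Il6, Acod1 and Il1b, the slide on which the lipid-associated and lysosomal genes were higher, and the part of those cells in the differences was not tested.

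**Figure D4:**
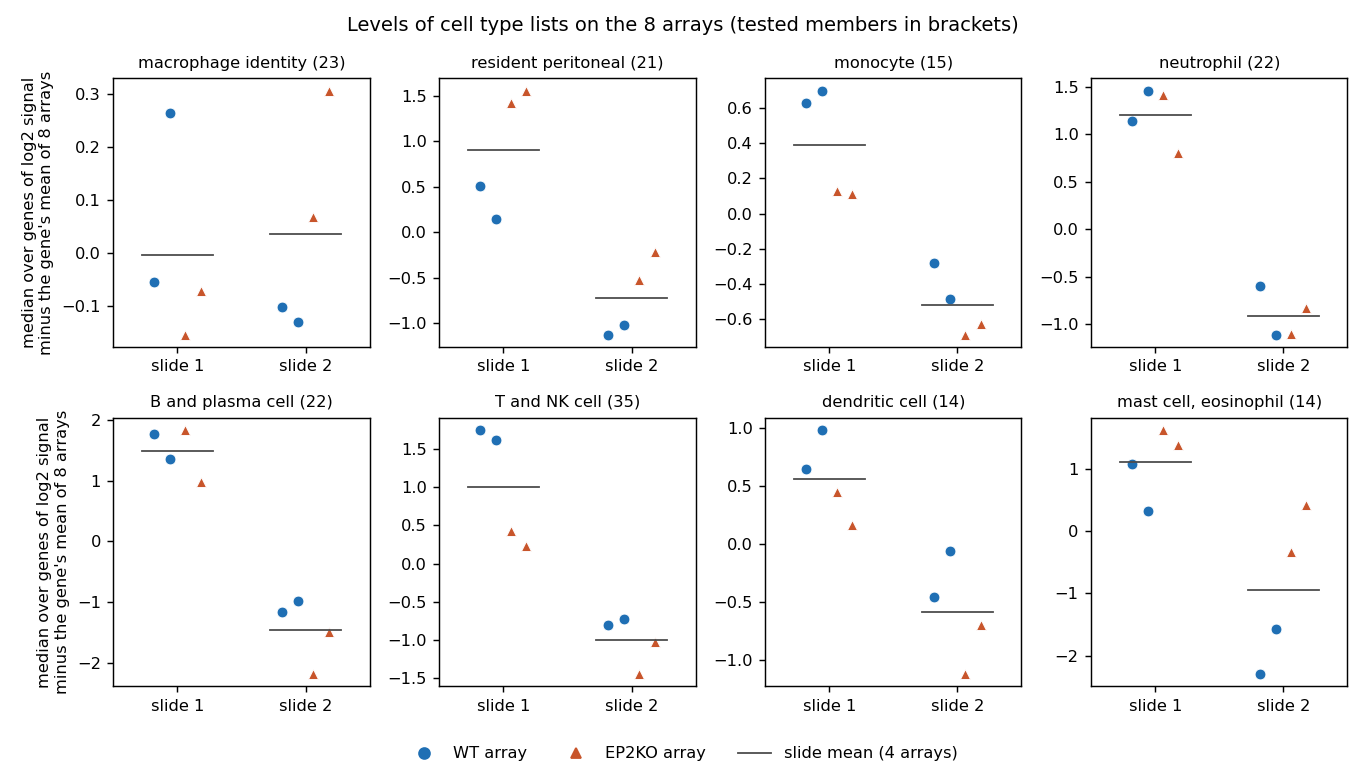
Level of 8 cell type lists on each array: the median over the list's tested genes of the log2 signal minus that gene's mean over the 8 arrays. Circles are WT arrays, triangles EP2KO arrays and bars the mean of a slide. In 6 panels all slide 1 arrays lie above all slide 2 arrays; macrophage identity genes overlap, and in mast cell and eosinophil genes EP2KO 4 lies above WT 2.

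Several genes far apart between the slides were on none of the lists. Higher on slide 2 were Bex1, an adaptor protein of neurons, 0.0224, 0.0146, 0.0227 and 0.0410 against 0.700, 5.08, 3.19 and 4.31 (6.81 ± 0.59, 112-fold), and Dio2, the deiodinase that activates thyroid hormone, 0.0168, 0.0133, 0.0264 and 0.0237 against 0.722, 1.69, 2.54 and 4.00 (6.60 ± 0.32). Htr2b, a serotonin receptor, read 0.0540, 0.0515, 0.0735 and 0.108 on slide 1 and 3.66, 3.84, 6.32 and 4.45 on slide 2 (6.02 ± 0.17, limma adjusted p = 2.83e-05). All 3 were well above background on all 8 arrays, yet far below the 75th percentile on slide 1 and close to it or above it on slide 2. Neuropeptide Y, Npy, was higher by 5.99 ± 0.44, the protease Prss46 by 5.64 ± 0.42, the retinol transporter Stra6l by 5.36 ± 0.27 and the organic anion transporter Slco2b1 by 5.04 ± 0.35.

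Other genes were well above background on one slide only, so their folds are bounds, computed against the lowest signal well above background on each dim array. They passed the filter on dim probes only through the slide where they are bright, so their test carries no weight and its p is not printed. Sfrp5, a secreted inhibitor of Wnt, was not well above background on any slide 1 array and read 0.163, 0.295, 0.204 and 0.350 on slide 2, at least 27.7-fold higher. Tceal7 was at least 19.1-fold higher and Tmem26 at least 11.4-fold. In the other direction, Ly6f had signals of 0.144, 0.0696, 0.154 and 0.0978 on slide 1, was not well above background on slide 2 and was at least 15.4-fold lower. Fpr-rs3, a relative of Fpr1, was at least 6.47-fold lower. With normexp background correction the fitted folds were smaller than these bounds: 5.27 for Sfrp5, 4.41 for Tceal7, 2.77 for Tmem26, 2.34 for Ly6f and 1.28 for Fpr-rs3.

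Whether the slide difference was itself different in WT and EP2KO was tested with an interaction term. It passed for 4 of 22731 features (0.0176%), while 4530 (19.9%) had an unadjusted p under 0.05. Plvap, the diaphragm protein of fenestrated endothelium, had signals of 0.0570, 0.0499, 0.0898 and 0.0951 on slide 1 and 0.186, 0.210, 0.0364 and 0.0331 on slide 2. The WT arrays were higher on slide 2 (1.89) and the EP2KO arrays lower (-1.41), an interaction of -3.30 ± 0.20 (EP2KO minus WT, limma adjusted p = 0.0386). Cldn10, a tight junction claudin, read 0.344, 0.345, 0.598 and 0.487 and 0.451, 0.417, 0.0479 and 0.0367, low only on EP2KO 3 and EP2KO 4 (-4.02 ± 0.26, adjusted p = 0.0386 in limma). Lrmda was lowest on EP2KO 1 and EP2KO 2, with 0.839, 0.887, 0.0381 and 0.0501 on slide 1 and 0.863, 0.792, 0.403 and 0.428 on slide 2 (3.31 ± 0.24). Gm1987, a predicted gene, was well above background only on WT 3 and WT 4 of slide 2 and on 2 slide 1 arrays (-3.73 ± 0.25). Without WT 3 and WT 4, where it was high, Gm1987 would not have passed the filter on dim probes, so its test carries no weight. The count was 931 without WT 1 and 0 without any 1 of the other 7 arrays.

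Genes of structural cells had medians of opposite sign in the genotypes, a difference that was not tested for the lists as such. Fibroblast genes had a median of 1.5 in WT and -2.68 in EP2KO over 20 genes, mesothelial genes 1.83 and -2.99 over 13, and endothelial genes 1.27 and -0.84 over 12. Relative to each gene's mean, the fibroblast level was 1.09, -1.12, 0.30 and 0.94 on slide 1 and 1.09, 1.53, -0.62 and -3.41 on slide 2, and the mesothelial level 1.36, -2.22, 0.45 and 1.55 and 1.43, 1.38, -1.41 and -2.11. WT 1 thus lay close to WT 3, and WT 2 lay far below both. Over both genotypes the fibroblast median was -0.64, -1.50 without WT 2 and 0.30 without EP2KO 4, and the mesothelial median -0.57, -1.68 without WT 2 and 0.23 without EP2KO 4. The summed fibroblast signal was 53.0 to 187 on slide 1 and 24.5 to 218 on slide 2, the mesothelial one 1.08 to 13.03 and 1.05 to 10.6, and the endothelial one 4.50 to 4.99 and 10.6 to 18.2. Dcn, a collagen-binding proteoglycan of fibroblasts, read 26.1, 7.06, 13.7 and 23.5 on slide 1 and 56.4, 62.6, 8.12 and 1.59 on slide 2. WT 2 was low on slide 1, and EP2KO 3 and EP2KO 4 were low on slide 2. Col3a1, a fibrillar collagen, read 9.31, 3.00, 6.58 and 9.43 and 20.2, 18.4, 3.82 and 0.374, and Msln, mesothelin, 1.02, 0.0636, 0.687 and 1.46 and 1.35, 0.955, 0.214 and 0.227. Their interactions did not pass (limma adjusted p = 0.167 for Dcn, 0.196 for Col3a1 and 0.238 for Msln). Of the fibroblast genes 1 was higher and 1 lower over both genotypes, and of the mesothelial genes 0 and 0; without WT 2, however, 5 mesothelial genes were lower. Vwf, the clotting factor of endothelium and platelets, was higher on every slide 2 array, with 0.349, 0.315, 0.535 and 0.594 on slide 1 and 5.76, 9.17, 13.4 and 12.7 on slide 2 (4.49 ± 0.16). Vwf alone made up most of the summed endothelial signal on every slide 2 array.

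Cell cycle genes had a median slide difference of -0.21 in WT and -2.64 in EP2KO over 44 genes. Of these, 13 were lower and 0 higher (29.55% and 0%, against 17.9% and 24.5% of all features). The count of lower genes depends on single arrays: it was 38 without WT 3, 35 without WT 2, 0 without EP2KO 2 or EP2KO 3, and 1 without WT 1, WT 4, EP2KO 1 or EP2KO 4. Mki67, the proliferation antigen Ki-67, read 3.09, 1.88, 6.33 and 6.55 on slide 1 and 4.62, 1.67, 0.779 and 0.927 on slide 2. EP2KO 1 and EP2KO 2 were the highest arrays and EP2KO 3 and EP2KO 4 the lowest, while the WT arrays of both slides overlapped. Mki67 did not pass (-1.36 ± 0.68, limma adjusted p = 0.148), nor did Top2a, a topoisomerase of dividing cells (-1.62 ± 0.71, adjusted p = 0.107 in limma). Without WT 3 the Mki67 difference was -1.96 (limma adjusted p = 0.0296) and that of Top2a -2.21 (limma adjusted p = 0.0310). Without WT 2 that of Top2a was -2.20 (limma adjusted p = 0.0284).

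**Figure D5:**
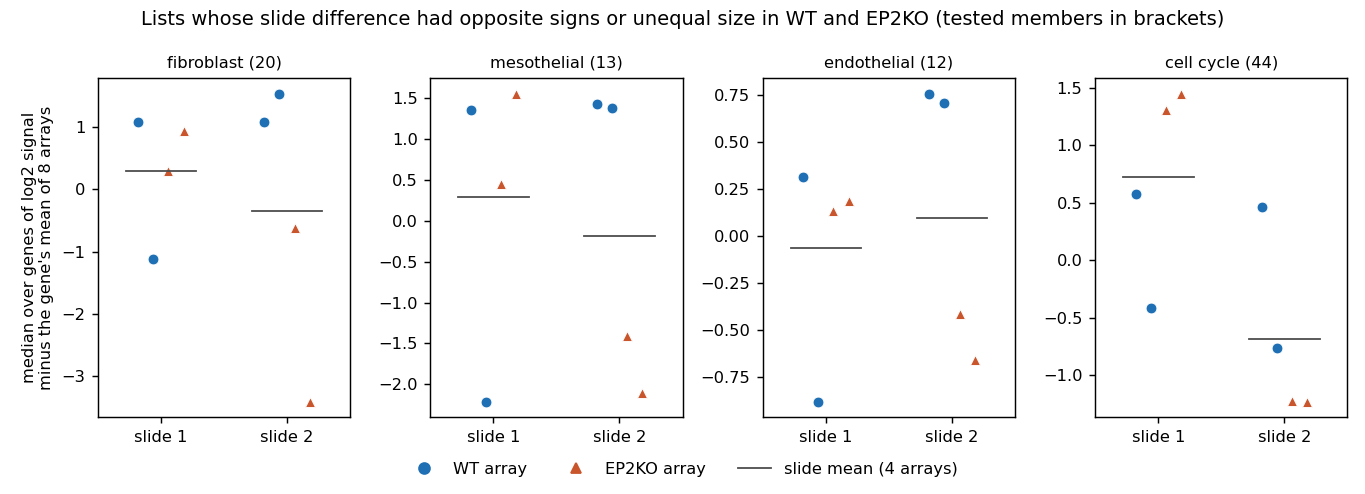
Level of fibroblast, mesothelial, endothelial and cell cycle lists on each array, as the median over tested genes of the log2 signal minus the gene's mean over the 8 arrays. Circles are WT arrays, triangles EP2KO arrays and bars the mean of a slide. EP2KO arrays are lower on slide 2 in all 4 panels, and WT 2 lies below the other slide 1 arrays in all 4.

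Genes used as a reference differed between the slides about as often as all features. Actb, the beta-actin gene, did not pass (0.16 ± 0.17, limma adjusted p = 0.472), with -0.21 in WT and 0.54 in EP2KO. Of 10 such genes 3 were higher and 1 lower (30% and 10%, against 24.5% and 17.9% of all features), with a median of 0.15. Gusb, named above among the lysosomal enzymes, is one of those higher. The remaining lists follow antioxidant and stress genes and other tissues that a preparation could hold. Their counts stand beside 24.5% higher and 17.9% lower of all features. Of 20 Nrf2 antioxidant genes 4 were higher and 2 lower (2 higher without EP2KO 1 or EP2KO 4), and of 20 heat shock and unfolded protein genes 4 were higher and 4 lower (2 lower without EP2KO 1). Erythroid and platelet genes were higher in 1 and lower in 4 of 13; 1 was lower without EP2KO 1 or EP2KO 3 and 2 were lower without WT 2, WT 4 or EP2KO 2. Of 12 muscle genes 2 were higher and 0 lower, with 5 lower without WT 2 and 2 without WT 3. Of 6 adipocyte genes 0 were higher and 2 lower, of 15 intestinal genes 0 and 1, and of 4 pancreatic acinar genes 2 and 0. The endothelial list counted 3 higher and 2 lower, with 1 higher without EP2KO 1.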

How the data were processed

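RNA of 8 macrophage samples was hybridised to 1-colour Agilent arrays. The deposited values are processed spot intensity from Agilent Feature Extraction 10.7.1.1, per the file headers; the submitters' processing notes name version 9.1. The authors' intensity values are background-corrected but not scaled between arrays, per the file headers, and the deposited series table held the same values. The 75th percentile of log2 intensity over 39429 probes was subtracted per array, controls were left out and spots of a probe averaged. Probes well above background on at least 4 of 8 arrays were kept, with the brightest probe per gene. RefSeq transcript accessions named 27502 probes (GRCm38.p6).

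Slides were compared with limma 3.58.1 (R 4.3.3, lmFit and eBayes) with genotype as covariate, over all features with Benjamini-Hochberg adjustment, and the genotype by slide interaction in a second model. Single values used two-sided exact permutation tests. In data simulated for the slide comparison over 22697 features, 200 of them changed, 46.0% of 2-fold and 81.6% of 4-fold changes were recovered. For the interaction, 15.6% of 4-fold changes were. In the real slide comparison 9626 features were counted, so the adjustment was stricter in the simulated one. Its shares therefore do not describe the recovery in the real slide comparison. The precision is limited by the number of arrays.

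Members and 42 gene lists were chosen with earlier results of these data known. Genes named are the 6 markers and Ptger2, those with the largest differences, bounds or interactions, and for each list its first 4 members and up to 4 per direction with the largest difference. Not every gene this takes was named, and some items are not reported here. Of 882 genes on the lists 868 had a probe and 822 were tested. Of 1637 counted genes with several kept probes, 50 had another probe counted in the other direction. Alternatives were other scalings, background correction, filters, probe rules, variance models, a replicate block, 1 genotype only and each array left out. Same-numbered WT and EP2KO arrays shared a slide, so their deviations from the genotype means correlated (r from 0.14 to 0.73); with slide means removed r was -0.35 on slide 1 and -0.08 on slide 2, and the labels do not say that a number marks a shared animal or day.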

Additional observations from a re-analysis of the deposited data

Results flagged for a closer look

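On a slide's 4 arrays, 1 array stood apart from the other 3 in 18 of 402 groups examined; chance gives about 1 in 20, or 20.1. The gap to the nearest array, as a share of the range, is given for each. On WT 3 it was 0.862 for Tnf, 0.867 for Ccl3 and 0.877 for Cd274. On WT 2 it was 0.943 for Cd14, 0.840 for Mmp9, 0.863 for the alternative activation list and 0.851 for the endothelial list, and on WT 1 it was 0.874 for Lbp. On EP2KO 1 it was 0.880 for Acod1, 0.893 for Mpeg1 and 0.974 for Sirpa, and on EP2KO 2 it was 0.912 for the CC chemokine list. On EP2KO 3 it was 0.891 for Olr1. On EP2KO 4 it was 0.837 for Il1b, 0.935 for Ccl24, 0.878 for Galc, 0.917 for Abca1 and 0.852 for the pancreatic acinar list.

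The interaction test with limma passed for Cldn10 (EP2KO minus WT, -4.02), Gm1987 (-3.73), Lrmda (3.31) and Plvap (-3.30). The test of Gm1987 carries no weight, because the filter on dim probes kept it through the arrays where it was high. No interaction passed with normexp background correction, and the interactions counted depended on single arrays, as given above. In other cases every array of one genotype moved opposite to every array of the other. The difference of the slide differences, EP2KO minus WT, was -4.60 for Ccl2, -4.45 for Dcn, -4.59 for Col3a1, 0.69 for Csf1r and 0.75 for Actb. None of these 5 passed the interaction test (limma adjusted p = 0.135, 0.167, 0.196, 0.204 and 0.145). For list levels the same difference was -1.85 for CC chemokines, -1.33 for scavenger receptors, 0.52 for macrophage identity genes, -3.97 for fibroblast, -4.60 for mesothelial and -1.71 for endothelial genes, and it was not tested.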

How the results depend on the processing

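Of the 9626 features counted, all kept their direction under each alternative that kept the feature, except with the mean of a gene's probes (9591), without a filter on dim probes (9623) and with normexp background correction (9098). Among 159 genes named, 99 kept both direction and side of the threshold in every one of the 23 settings that kept the gene. The filter on all 8 arrays kept 150 of the 159, and that on all arrays of 1 genotype kept 152. The setting with the series table used the same values as the main fit, so it could change no call. Of 141 named genes that passed, 36 lost their call in WT arrays alone, 4 in EP2KO arrays alone (Egr2, Isg15, Vegfa and Kit), 16 with normexp (Cxcl1, Cxcl2, Cxcl3, Cxcl9, Tlr4, Isg15, Apoc4, Acp5, Ocstamp, Car2, Atp6v0d1, Abca1, Cxcr2, Kit, Ly6f and Fpr-rs3), and Mcpt4 without the genotype term. The 141 include Sfrp5, Tceal7, Tmem26, Ly6f and Fpr-rs3. Their calls carry no weight, because the filter on dim probes kept them through 1 slide only. Gata6 lost its call without WT 1 or without any 1 EP2KO array, and Tlr4 without EP2KO 1. Features counted were 2558 in WT arrays alone and 3335 with normexp, and those at 2-fold or more 2501 and 1962; normexp also moved the median of all features from 0.07 to 0.20. Without 1 array the counts ran from 6907 to 10422 and from 3920 to 5009. Interactions numbered 2 with array weights, 7 with a trended robust variance, 1 without a filter, 0 with normexp, 14 among probes above background on all 8 arrays and 0 to 931 without 1 array. Of the 42 list medians, 36 moved by more than the spread in at least 1 setting and 16 changed sign, among them CC chemokines (0.44 in WT and -1.85 in EP2KO). Those of the lists led with were as follows. In EP2KO arrays alone they were 1.44 for lipid-associated macrophage, -2.08 for large resident macrophage, -1.66 for T and NK cell and -1.60 for mast cell genes. In WT arrays alone they were -0.28 for cytokines, 0.90 for the proton pump and -1.48 for large resident macrophage genes, the last being -2.42 with array weights and -2.25 to -1.55 without 1 array. The proton pump median was 0.96 to 1.17 without 1 array. With normexp the medians were -0.010 for cytokines, -1.66 for neutrophil, -2.41 for B cell, -0.93 for T and NK cell and -1.61 for mast cell genes. Differences that did not pass changed sign in some settings. In EP2KO arrays alone these were Ccl2 (-1.86), Csf1r (0.25), Adgre1 (0.044) and Plvap (-1.41). In WT arrays alone they were Tnf (0.30), Arg1 (0.19), Dcn (2.13), Col3a1 (1.87), Msln (2.16), Cldn10 (0.33), Lrmda (-0.062), Mki67 (0.21) and Actb (-0.21). With array weights they were Ccl2 (-0.70), Csf1r (0.065) and Plvap (-0.52), and with quantile normalization Actb (-0.023). Without 1 array the differences ranged over -0.92 to 0.82 for Dcn, -1.21 to 0.70 for Col3a1, -1.25 to 0.64 for Msln, -0.13 to 0.60 for Plvap, -0.33 to 1.00 for Ccl2 and -0.22 to 0.022 for Csf1r. The causes were not tested, beyond the fewer arrays that single-genotype and left-out settings hold. With the replicate number as a random replicate block (correlation -0.38) 12533 features were counted and no named gene lost its call. Cldn10, Lrmda, Gm1987, Mki67 and Top2a then passed for the slide difference (limma adjusted p = 0.0297, 0.0176, 0.0113, 0.0449 and 0.0311). Each replicate number lies within 1 slide, so a negative correlation narrows the standard error of the slide difference. The calls kept or gained in this setting are therefore no support for those genes. Signals near background limit the size of dim differences.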
